A study of Mus musculus with 4 samples.

Results

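Binding of the transcription factor SMAD4 in mouse alveolar macrophages (AMs) was examined at 9 genes of cholesterol efflux and trafficking: Abca1, Abcg1, Abca7, Apoe, Npc1, Npc2, Soat1, Nceh1 and Mylip. They were taken as a named list, chosen with earlier results of these data known, from 20923 protein-coding genes. A peak was assigned to a gene when its summit lay in the gene body or within 50 kb of a curated transcription start site (TSS), an area called the window below. At least 1 region was bound in both libraries at 7 of these genes, next to 39.1% of protein-coding genes under the same rule. The windows of the 9 genes held 28 of the 10964 such regions in the genome. Abca1, Nceh1 and Abcg1 accounted for 22 of the 28, whereas Abca7 and Mylip had none.

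Macrophages take up cholesterol from surfactant, lipoproteins and dead cells, and must export or store what they cannot use. Cholesterol leaves the lysosome through NPC2 and NPC1, is esterified in the endoplasmic reticulum by SOAT1 (ACAT1) and is released again by neutral hydrolases such as NCEH1. ABCA1 and ABCG1 pass it to apolipoproteins and HDL, and liver X receptors (LXRs), partners of RXR, are known to induce Abca1, Abcg1, Apoe and Mylip when sterols accumulate. SMAD4 joins TGFβ-activated SMADs in complexes that bind DNA, and in AMs, which clear surfactant lipid, TGFβ is a signal needed for their development.

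AMs came from wild-type C57BL/6J mice by bronchoalveolar lavage and were sorted by FACS in aliquots of 200000 cells, with no treatment named in the labels. SMAD4 was profiled by HT-ChIPmentation, in which the transposase Tn5 inserts sequencing adapters into immunoprecipitated chromatin on the beads. A combination of SMAD4 antibodies was used on 2 libraries, and 2 input libraries served as control. Whether the libraries came from separate mice, or from how many, is not given in the sources used here, so the spread between them may be technical. All samples were of this single condition, so no contrast was available and no test was made. SMAD4 peaks were called in each library separately, with 16369 in replicate 1 and 19015 in replicate 2. Replicate numbers are accession order and pair no library with an input. The control level at background was 2.08 fragments in replicate 1 and 1.22 in replicate 2, and at an equal pileup a higher control level gives a lower fold. All 10 AM marker genes examined were the nearest gene to a shared region, next to 21.5% of protein-coding genes. Of 10 markers of other lung cells, 3 were the nearest gene to one (Scgb1a1, Pecam1 and Ncr1). Both lists were chosen with earlier results of these data known, and binding is not expression, so these counts do not test the label.

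The sequence under the strongest shared region of 6 of the genes is shown first (that of Npc1 is not shown), because they hold the letters to which the later motif counts refer. Each is the plus strand of mm10 (GRCm38, read from the RefSeq assembly), with 50 bases on each side of the mean summit and with matches to the motifs listed further on in capitals. At Abca1 (chr4:53120416-53120516) and Apoe (chr7:19683844-19683944) the match was to the CEBP string, read TTGAGCAA and TTGCACAA on this strand. Soat1 (chr1:156471206-156471306) held a RUNX and a CEBP match, Abcg1 (chr17:31040770-31040870) a RUNX match, Npc2 (chr12:84748315-84748415) a RUNX and a SMAD match, and Nceh1 (chr3:27218799-27218899) no match this close to the summit.
Abca1: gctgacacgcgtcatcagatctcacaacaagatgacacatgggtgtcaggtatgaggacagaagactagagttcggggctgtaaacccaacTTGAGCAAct
Apoe: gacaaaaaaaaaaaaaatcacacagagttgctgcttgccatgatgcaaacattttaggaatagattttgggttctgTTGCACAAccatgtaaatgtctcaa
Soat1: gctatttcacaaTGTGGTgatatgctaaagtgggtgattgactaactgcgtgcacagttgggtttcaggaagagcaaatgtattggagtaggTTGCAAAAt
Abcg1: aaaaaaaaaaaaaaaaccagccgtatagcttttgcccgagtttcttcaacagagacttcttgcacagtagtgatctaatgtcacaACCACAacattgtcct
Npc2: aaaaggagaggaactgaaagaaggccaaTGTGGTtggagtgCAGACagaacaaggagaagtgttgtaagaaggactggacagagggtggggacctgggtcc
Nceh1: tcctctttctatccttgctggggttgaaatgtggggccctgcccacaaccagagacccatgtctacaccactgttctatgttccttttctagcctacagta

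Paired copies of the nuclear receptor hexamer AGGTCA were present in 2 weaker regions, and these pairs were looked for after the windows had been read. Their arrangement and spacing were thus taken from these same regions. The shares below include them and do not measure how unusual the pairs are. The region of Abcg1 19045 bp upstream of its TSS held AGGTCA and its reverse complement TGACCT separated by 1 base (chr17:31038554-31038614), which was the sole inverted pair of this spacing within 100 bp of a summit among all 10964 shared regions (0.00912%). The region of Nceh1 15794 bp into the gene held TGACCT repeated in the same direction with 2 bases between the copies (chr3:27198849-27198909), an arrangement present in 3 of all 10964 (0.0274%). Only the paired hexamers are in capitals.
Abcg1, inverted pair: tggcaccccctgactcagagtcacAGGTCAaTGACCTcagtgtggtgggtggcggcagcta
Nceh1, direct pair: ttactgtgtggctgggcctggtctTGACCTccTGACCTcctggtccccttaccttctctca

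Peaks lay in the windows of 7 of the 9 genes in replicate 1, where 46.6% of protein-coding genes had a peak, and of all 9 in replicate 2, where 53.4% had one. The windows held 38 peaks of replicate 1 and 45 of replicate 2. Of these, 29 of 38 (76.3%, exact 95% binomial interval 59.8 to 88.6%) and 30 of 45 (66.7%, 51.0 to 80%) overlapped a peak of the other library by at least 1 bp, next to 69.4% and 59.2% over all peaks. The intervals cover counting error only and treat peaks as independent, although many came from the same genes and all from a single pair of libraries. Peaks without a partner were called unshared, and merged overlapping peaks were called shared regions. A shared region lay in the window of 7 of the 9 genes, against 39.1% of protein-coding genes, and the gene had the nearest TSS to a shared region for 6 of the 9, against 21.5%. None of the 9 had a shared region in its promoter, taken as the 1 kb before a TSS and the first 100 bp after it, where the background is 3.1% of protein-coding genes. A longer gene has a larger window, and the genes were chosen with earlier results of these data known, so these counts describe the 9 genes only.

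**Figure D1:**
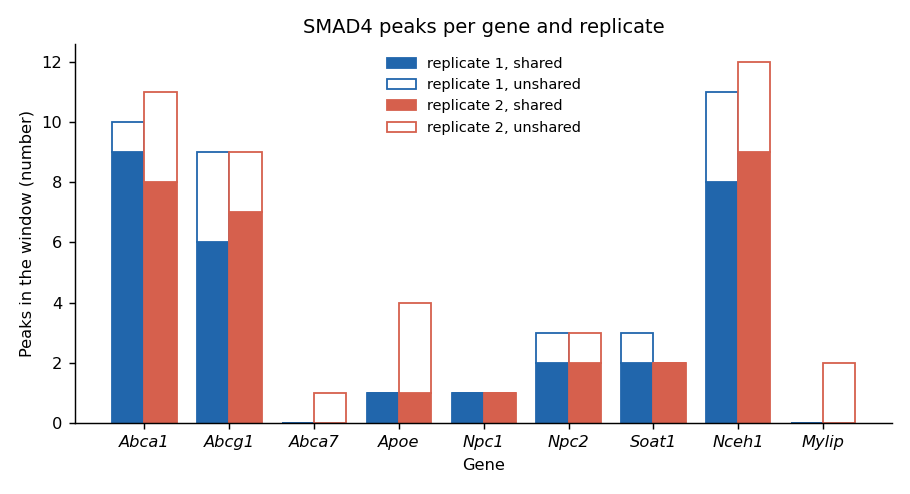
Number of SMAD4 peaks in the window of each gene (bars, by gene) in replicate 1 (blue) and replicate 2 (red), with filled bars for peaks that overlap a peak of the other replicate and open bars for those that do not. Abca1, Abcg1 and Nceh1 had 9 to 12 peaks in each library, and Abca7 and Mylip had peaks in replicate 2 only, all without a partner.

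Abca1 encodes the transporter that loads cholesterol and phospholipid onto lipid-poor apolipoprotein A1. The gene (chr4:53030789-53159895, minus strand) held 10 peaks in replicate 1 and 11 in replicate 2, merging into 8 shared regions, and 0.607% of protein-coding genes had 8 or more in their window. All 8 lay in introns: 6 in intron 5 (18311 bp long, of a transcript of 50 exons) and 2 in intron 1. The strongest region, chr4:53120025-53120905 in intron 5, 39429 bp from the TSS, had a fold enrichment of 22.1 in replicate 1 and 35.6 in replicate 2. These folds rested on 67 fragments (exact 95% Poisson interval 51.9 to 85.1, counting error only) and 78 fragments (61.7 to 97.3) stacked at the summit. It ranked 298 of 10964 by the smaller fold of the replicates and was the strongest region of the 9 genes.

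The other Abca1 regions were weaker by a wide margin. The next, chr4:53118661-53119180, lay 1454 bp away in the same intron with folds of 9.75 and 11.3. The remaining 6 had folds of 3.90 to 6.50 in replicate 1 and 5.41 to 8.37 in replicate 2. The weakest of them, chr4:53127098-53127249, rested on 11 fragments in each library. The 8 summits spanned 41078 bp, the closest of them 9398 bp from the TSS. Another 4 peaks were unshared, 1 in replicate 1 and 3 in replicate 2, with folds of 4.06 to 5.41.

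Abcg1 encodes a transporter that moves cholesterol to mature HDL. In contrast to Abca1, its 6 shared regions were all intergenic and upstream of the gene (chr17:31057694-31117984, plus strand), 5177 to 36763 bp before the TSS, and 1.97% of protein-coding genes had 6 or more. No other TSS was closer to any of them. The strongest, chr17:31040506-31041096, 16874 bp upstream, had folds of 15.3 and 20.3 on 46 fragments (33.7 to 61.4) and 44 fragments (32.0 to 59.1), and ranked 915. Its neighbour, chr17:31039287-31040187, lay 1001 bp farther upstream with folds of 10.4 and 15.7. With the region of the inverted hexamer pair (folds 4.47 and 7.95), these formed a group of 3 regions 16874 to 19045 bp upstream.

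The region closest to the Abcg1 TSS, chr17:31052388-31052685, went the other way between libraries, with a fold of 6.86 on 22 fragments in replicate 1 and of 5.41 on 11 fragments in replicate 2. Counting intervals of these pileups (13.8 to 33.3 and 5.49 to 19.7) overlapped. Inside the gene body there were 3 peaks, 2 of replicate 1 and 1 of replicate 2, and no pair of them overlapped. A replicate 1 peak and the replicate 2 peak in intron 2 had summits at 20481 and 20600 bp from the TSS (folds 4.87 and 5.41) but did not share a base.

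Abca7, a relative of ABCA1 known for phospholipid transport and phagocytosis, had no peak in replicate 1 and a single peak in replicate 2. That peak, chr10:80017516-80017718, lay past the 3′ end of Abca7 (chr10:79996494-80015572, plus strand), in an intron of Arhgap45, whose TSS was 681 bp away. It had a fold of 5.41 on 11 fragments. The nearest shared region outside the window was 68044 bp upstream of the Abca7 TSS and had Arid3a as its nearest gene (folds 8.45 and 16.7).

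Apoe encodes the apolipoprotein that macrophages secrete as an acceptor for effluxed cholesterol, and it lies in a cluster with Apoc1, Apoc4 and Apoc2 that is known to have shared macrophage enhancers downstream of Apoe. Its window held 1 peak in replicate 1 and 4 in replicate 2. The shared region, chr7:19683692-19684201, lay 14504 bp downstream of the Apoe TSS (gene at chr7:19696244-19699188, minus strand) and had folds of 13.4 and 27.5. Pileups were 44 fragments (32.0 to 59.1) and 60 fragments (45.8 to 77.2), and the region ranked 1273. The nearest TSS was that of Apoc4, 2434 bp away, and this was the sole region of the 28 with a nearer TSS than that of the gene in question. The strongest summits of the replicates were 170 bp apart. The remaining 3 peaks, all of replicate 2 and unshared, were nearest to Apoc2 (folds 6.77 and 4.96) and in the promoter of Tomm40 (fold 4.96).

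Npc1 and Npc2, the membrane and soluble proteins that carry cholesterol out of lysosomes, had few regions of intermediate strength. Npc1 (chr18:12189694-12236386, minus strand) had 1 peak in each library, which formed a region in intron 1, chr18:12223808-12224249, 12339 bp from the TSS. Its folds were nearly equal, 8.77 on 26 fragments (17.0 to 38.1) and 8.37 on 19 fragments (11.4 to 29.7), with summits 168 bp apart. Npc2 (chr12:84754559-84773112, minus strand) had 3 peaks in each library and 2 shared regions, both beyond its 3′ end. Region chr12:84748067-84748625 had folds of 7.47 and 11.7, and region chr12:84751975-84752360 had folds of 7.15 and 11.3. Their summits were 24747 and 20953 bp downstream of the TSS. The Npc2 gene body had an unshared peak of each library in intron 2, with folds of 4.87 in replicate 1 and 6.77 in replicate 2.

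Soat1, which esterifies cholesterol for storage in droplets, had the shared region nearest to the TSS of its own gene among the 28. This region, chr1:156470852-156472216, lay in intron 1, 3072 bp from the TSS (gene at chr1:156428108-156474328, minus strand), and was also the widest, at 1365 bp. Folds were 20.8 and 29.8 on 63 fragments (48.4 to 80.6) and 65 fragments (50.2 to 82.8), and the strongest summits were 6 bp apart. It ranked 372, below only the strongest region of Abca1 among the 28. A weaker region in intron 2, chr1:156458616-156459270, had folds of 7.80 and 10.8 on 23 fragments in each library. Replicate 1 had an additional unshared peak there with a fold of 4.22.

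Nceh1, a hydrolase of cholesteryl esters in macrophages, had the highest density of shared regions. Its window held 11 peaks of replicate 1 and 12 of replicate 2, which merged into 8 shared regions, or 7.15 per 100 kb of window. For comparison, Abcg1 had 5.44, Abca1 4.47 and the other members at most 2, and the average over chromosomes 1 to 19 and X was 0.416 per 100 kb. That average also covers sequence far from any gene, so it is not a like baseline for windows around genes. All 8 were intronic, 5 in intron 1 (39452 bp long) and 3 in intron 3, and were spread over 44807 bp of the gene (chr3:27183004-27244911, plus strand). Compared with Abca1 or Soat1, none was strong. The strongest by the smaller fold, chr3:27218228-27219236, had folds of 9.10 and 11.7 and ranked 2956. Region chr3:27227330-27227948 had a fold of 8.12 on 24 fragments in replicate 1 and of 15.9 on 37 fragments in replicate 2. The lowest, chr3:27198696-27198899, with the direct hexamer pair, had folds of 4.55 and 5.87 and the same summit base in both libraries. A peak in the Nceh1 promoter, 106 bp upstream of the TSS, was found in replicate 2 only, with a fold of 4.51 on 9 fragments (4.12 to 17.1).

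Mylip encodes IDOL, a ubiquitin ligase that LXR induces and that limits lipoprotein uptake. It had no peak in replicate 1 and 2 peaks in replicate 2. The first, chr13:45391578-45391787, lay in intron 2, 1953 bp from the TSS (gene at chr13:45389742-45411940, plus strand), with a fold of 6.77 on 14 fragments, and the other lay 38045 bp upstream with a fold of 4.83. However, a shared region with Mylip as its nearest gene was located 53018 bp downstream of its TSS, just outside the window. This region, chr13:45442274-45442960, had folds of 10.7 and 19.4, so that the absence of a shared region at Mylip depends on the 50 kb limit.

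**Figure D2:**
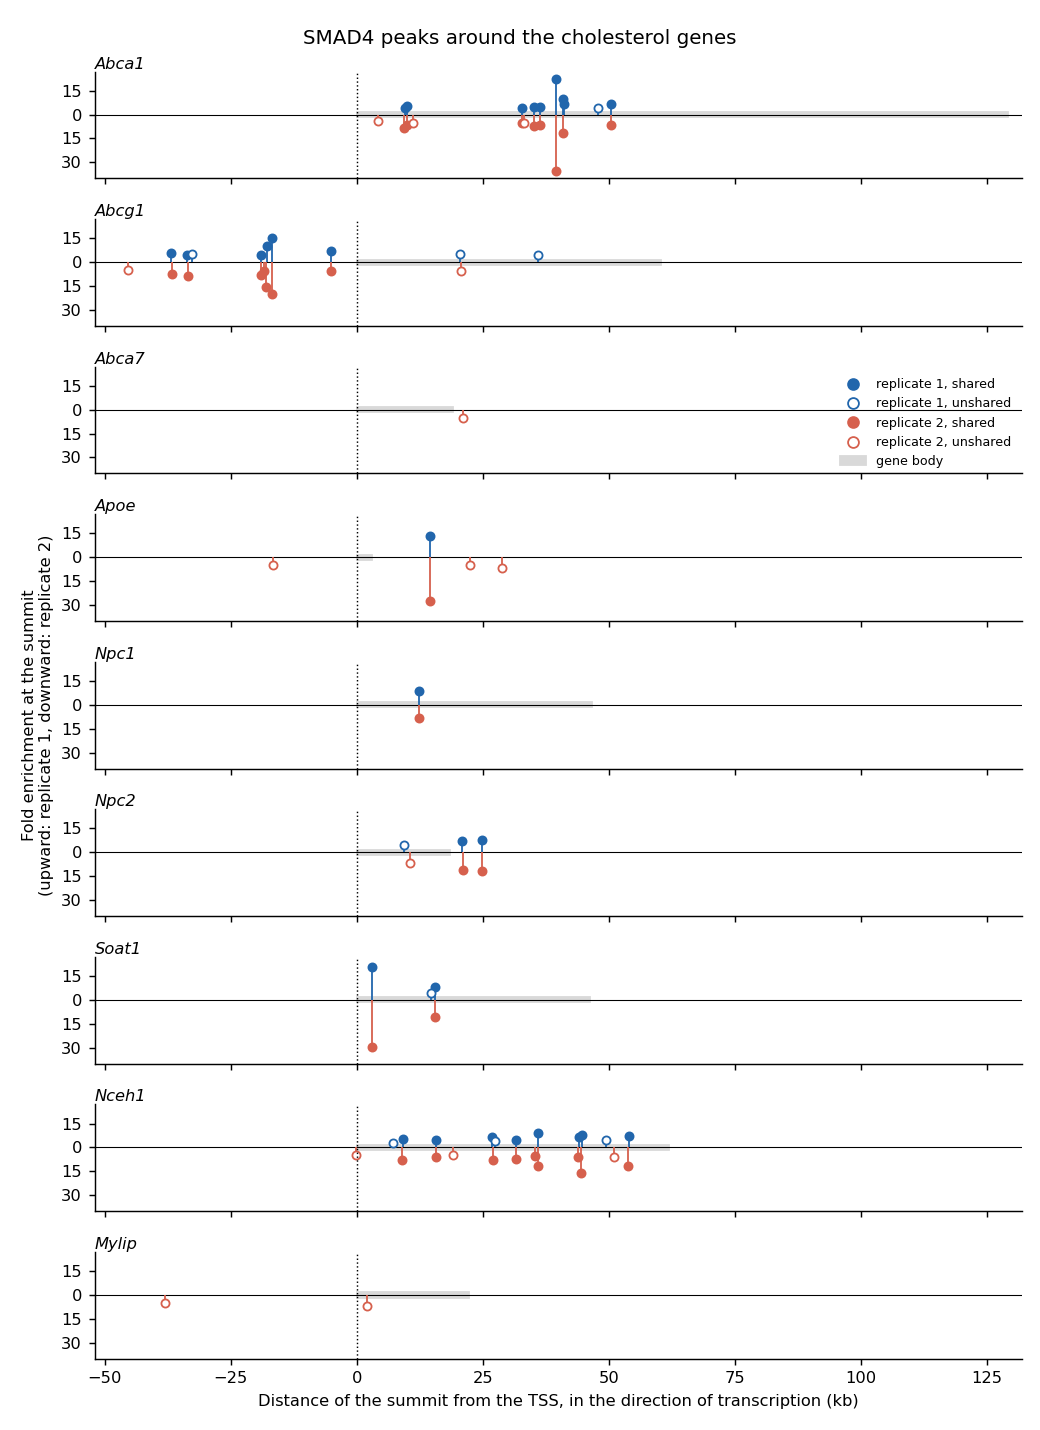
Position of each SMAD4 summit relative to the TSS of its gene (horizontal axis, kb in the direction of transcription, with the gene body as a grey bar) and its fold enrichment (vertical axis, linear, with replicate 1 upward and replicate 2 downward). Filled points are shared peaks and open points unshared ones; Abca1 and Nceh1 regions lie inside the genes, the 6 of Abcg1 lie upstream, and the 2 of Npc2 and that of Apoe lie downstream.

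Taking the 28 regions as a group, 19 (67.9%) were intronic and 9 (32.1%) intergenic, next to 49.3% and 40.5% of all shared regions, and none was in a promoter, next to 6.42%. Within 10 kb of the TSS of their gene lay 5, and none lay within 1 kb, with a median distance of 25831 bp. The median distance to the nearest TSS of any gene was likewise 25831 bp, next to 18040.5 bp over all shared regions. The window takes in a whole gene body but intergenic sequence only within 50 kb of a TSS, which shapes these shares and distances. Moreover, 16 of the 28 regions came from Abca1 and Nceh1, all of them intronic. The values over all shared regions are thus not a like baseline for position. The smaller fold of the replicates had a median of 6.41 (range 3.90 to 22.1), close to 6.50 over all shared regions. The strongest regions of Abca1, Soat1 and Abcg1, 3 of the 28, were in the top 10% of all shared regions by this measure, and 14 were in the upper 50%. The median width was 484 bp next to 440 bp, and the median GC content within 100 bp of the summit was 44.3% next to 43.8%.

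The libraries differed in fold in the same direction at most of these regions. Fold was higher in replicate 2 at 25 of 28 regions, with a median ratio of 1.41, compared with 87.2% of all shared regions and a median of 1.39. The exceptions were the region of Npc1, the Abcg1 region nearest to the TSS, and the Abca1 region 50476 bp from the TSS (6.50 and 6.32). The strongest summits of both libraries were a median of 51 bp apart (range 0 to 275 bp). A ratio above 1 does not require more fragments in replicate 2, since the control level there was lower. At the Soat1 region in intron 2, 23 fragments in each library gave a ratio of 1.39. Shared peaks in the windows had a median pileup of 21 fragments in replicate 1 and 19 in replicate 2. The part of the control level in the difference over all regions was not tested.

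**Figure D3:**
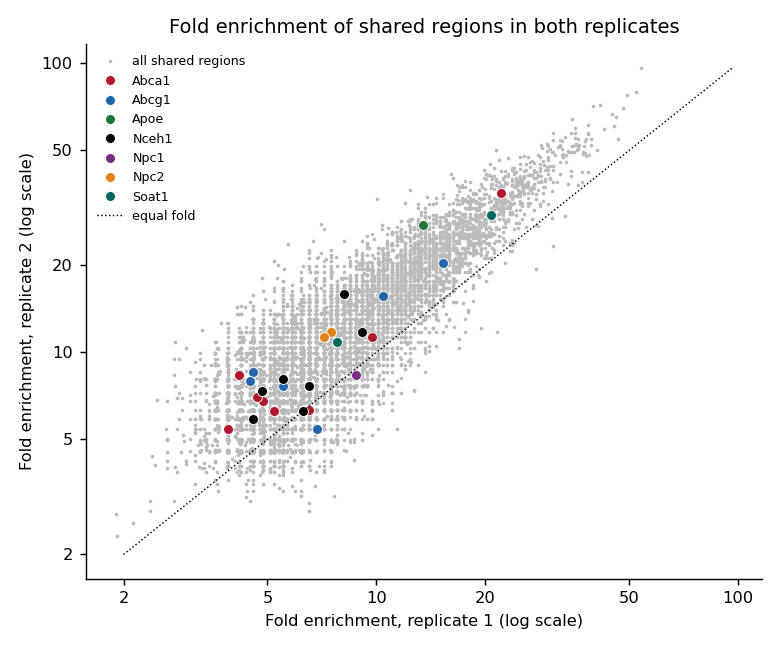
Fold enrichment in replicate 1 (horizontal) and replicate 2 (vertical), both on log axes, of all 10964 shared regions (grey) and the 28 regions of the 9 genes (coloured by gene), where the dotted line marks equal fold. The regions of Abca1, Soat1, Abcg1 and Apoe with the highest folds sit in the upper right, 25 of 28 lie above the line, and some points coincide because regions with the same number of fragments and the same control level have the same fold.

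Unshared peaks in the windows were narrow and weak. The 9 of replicate 1 had a median fold of 4.22, a median width of 147 bp and a median pileup of 13 fragments, and the 15 of replicate 2 had a median fold of 5.41, width of 151 bp and pileup of 11 fragments. Shared peaks in the same windows had a median pileup of 21 and 19 fragments. Over the genome, unshared peaks of replicate 1 had a low GC content (median 29.9%, next to 43.3% for its shared peaks). Those of replicate 2 did not (median 44.3%, next to 43.8% for its shared peaks). In the windows, the 9 unshared peaks of replicate 1 had a median of 37.8% (33.8 to 57.2%), and the 15 of replicate 2 one of 48.3%. The part of base composition in these calls was not tested.

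Motifs were looked for as exact strings, on either strand, within 100 bp of the 28 summits, and counts are given beside the share of all shared regions. The SMAD string CAGAC was found in 12 of 28 (42.9%, next to 38.8%), GGCGC in 2 (7.14%, next to 5.24%) and the palindrome GTCTAGAC in none (next to 0.465%). At Abca1, 5 of the 8 regions held CAGAC, though not the strongest, and the region of Apoe held 2 copies. The CEBP string TTGCNNAA was found in 10 regions (35.7%, next to 40.9%), the PU.1 string GAGGAAGT in 2 (7.14%, next to 8.0%) and the AP-1 string TGANTCA in 5 (17.9%, next to 12.3%), 3 of them without CAGAC. The RUNX string TGTGGT occurred in 12 (42.9%, next to 26.4%), spread over Abca1, Abcg1, Nceh1, Npc2 and Soat1. This count moved with the searched length, to 7 (25%, next to 15.5%) within 50 bp of the summit and to 15 (53.6%, next to 38.9%) within 200 bp. These regions share genes and are not independent, so the difference was not tested.

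The hexamer AGGTCA occurred in 3 regions (10.7%, next to 15.4%), those of Abcg1 and Nceh1 shown above and that of Apoe. The spaced repeats known to bind LXR-RXR and PPARγ-RXR dimers were absent from all 28 windows. The LXR type was written as NGGTCA and NGNTCA separated by 4 bases (0.182% of all shared regions) and the PPAR type as AGGNCA repeated with 1 base between (0.374%), and a match to either can contain AGGTCA. With shares this low over all regions, finding none among 28 says little about these genes. The SREBP string TCACNCCAC (0.876% of all) and the STAT5 string TTCNNNGAA (8.06%) were likewise not found. Within 200 bp of the summit, however, the STAT5 string was in 2 of 28 regions (7.14%, next to 14.9%), at Abca1 and Abcg1. The RBPJ string GTGGGAA and the E-box CACGTG were each present in 1 region, both upstream of Abcg1 (3.57%, next to 4.14% and 3.65%). Such exact strings miss variant sites, and their absence says only that these letters were not in the searched window.

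Beyond the 9 genes, 51 other genes of cholesterol metabolism were counted in the same way. Of these, 27 (52.9%) had a shared region in the window and 22 (43.1%) had the nearest TSS to a shared region, next to the 39.1% and 21.5% of protein-coding genes given above. Uptake genes had 5 of 7 in the window, and Cd36, a scavenger receptor, had stronger binding than any of the 9 genes (folds 37.4 and 48.7 at its strongest region, rank 25). Lrp1, an endocytic receptor for APOE-bearing particles, had folds of 16.6 and 20.8. Storage and hydrolysis genes had 4 of 4, led by the lipid droplet protein Plin2 (30.2 and 50.5, rank 75) and by Soat2, the paralogue of Soat1 (12.7 and 23.9, 364 bp from its TSS).

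Next to the 39.1% of protein-coding genes, genes of efflux partners and acceptors had a shared region in 4 of 6 windows. That of Apoc1 was the Apoe region, and the strongest nearest regions belonged to Arl4c (8.12 and 13.5) and Apoa1 (6.17 and 7.22, 75022 bp from its TSS and so outside the window). Synthesis genes had 6 of 13, with Hmgcs1 (14.3 and 21.2) ahead of Mvd (6.17 and 9.02). Intracellular transfer genes had 5 of 10, with folds of 12.5 and 13.0 at Gramd1b and of 6.82 and 15.8 at Gramd1a, which encode carriers of plasma membrane cholesterol. Among oxysterol enzymes 1 of 4 had a region in the window, that of Ch25h (16.6 and 14.9), which makes an LXR ligand, and Cyp7b1 was nearest to a region outside it (10.1 and 16.7, 76258 bp away).

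Sterol sensors had a shared region in 2 of 7 windows (28.6%, next to 39.1% of protein-coding genes). Insig1, which retains SREBP in the endoplasmic reticulum, had folds of 10.1 and 14.4 at a region 33496 bp upstream. Of the LXR genes, Nr1h2 had no peak in its window, and Nr1h3 had 1 peak in replicate 1 and 4 in replicate 2, with 1 shared region that was nearest to another gene. Srebf1 and Srebf2, which encode the SREBPs, had no peak in either library.

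**Figure D4:**
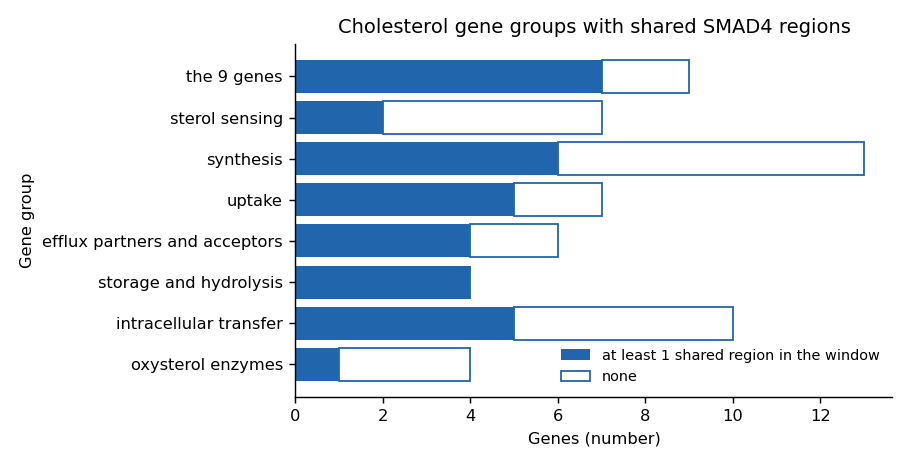
Number of genes (horizontal axis) in the group of 9 genes and in 7 groups of other cholesterol genes (vertical axis) that had at least 1 shared SMAD4 region in the window (filled) or none (open). The 9 genes had 7 with a region, storage and hydrolysis 4 of 4, uptake 5 of 7 and sterol sensing 2 of 7, next to 39.1% of protein-coding genes. The groups are small, and differences between them were not tested.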

How the data were processed

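Peak lists of the 2 SMAD4 libraries were used. Input enters only as the control behind each peak. Trimming (Cutadapt), alignment to mm10 (Bowtie2), duplicate marking (PICARD), read filtering (samtools) and peak calling per library (MACS3, q limit 0.05) were done by the authors. Per peak the deposited values are the summit's fold ratio, its −log10 p and −log10 q, a score and the summit offset. The deposited score restates q and was not used.

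Fold, a ratio of pileup to control after adding 1 to each, was solved together with p for the pileup, which was whole within 0.02 fragments at 100% of peaks. The procedure was tested on simulated peaks. A shared region merges peaks overlapping by at least 1 bp, and its summit is the mean of the strongest summit of each replicate. Gene models were curated RefSeq transcripts of GRCm38. Ranks use the smaller fold. Sequencing totals were not used. Intervals cover counting error only.

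Named were all 9 genes, their shared regions, genes with a nearer TSS, and the 2 other genes per group with the strongest nearest region. The 9 genes and all lists were chosen with earlier results of these data known. Python 3.11.15, pandas 2.3.3, scipy 1.17.1 and pysam 0.24.0 were used.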

Additional observations from a re-analysis of the deposited data

How the results depend on the processing

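Counting all peaks of a single library instead of shared regions gave 38 to 45 (45 without replicate 1) in place of 28. The percentage of window peaks with a partner fell to 55.3% in replicate 1 and 46.7% in replicate 2 at 50% reciprocal overlap, and was 100% of 21 peaks in replicate 1 at a minimum fold of 5. Across the alternatives the 28 regions ranged from 20 to 45 and the 7 genes from 5 to 9. Apoe and Npc1 were lost when summits had to lie within 100 bp. A window of 10 kb left 20 regions at 5 genes, and one of 100 kb gave 38 at all 9, Mylip and Abca7 included. A wider window can only add regions at any gene. The share of protein-coding genes is given here for 50 kb only (39.1%), so the counts at 10 and 100 kb have no baseline. Counts of strings rose and fell with the searched length, as did the shares over all shared regions. RUNX gave 7 of 28 with 50 bp on each side (next to 15.5%) and 15 with 200 bp (next to 38.9%). AGGTCA gave 0 (next to 8.04%) and 8 (28.6%, next to 26.6%). At the same lengths STAT5 gave 0 (next to 3.75%) and 2 (next to 14.9%), and GTCTAGAC 0 (next to 0.292%) and 1 (next to 0.666%). No paired analysis was possible because a single condition was profiled and replicate numbers pair no samples. The weakest of the 28 regions by the smaller fold, in intron 5 of Abca1, rested on 11 fragments in each library. The part of sequencing depth was not tested. The number of libraries limits every statement on spread.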
